A study of Mus musculus with 35 samples.

Results

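The 10 genes described here encode scaffold proteins of the postsynaptic density that are paralogues of Shank3 or belong to the scaffold chain around it: Shank1, Shank2, Homer1, Homer2, Homer3, Dlgap1, Dlgap2, Dlgap3, Dlgap4 and Dlg4. They were chosen by name, and all 10 had a row among the 14870 genes measured. The values are log2 CPM (CPM is reads scaled to a fixed library total) from bulk RNA-seq of mouse medial prefrontal cortex (mPFC) taken as tissue punches. The mice were Shank3-deficient (KO, 16 libraries) or wild type (WT, 19 libraries), and each genotype received antibiotics (abx), acetate, both together (abx_and_acetate) or water alone (control). Under abx there were 3 KO and 4 WT libraries, under acetate 5 and 5, under abx_and_acetate 4 and 4, and in control 4 and 6. The design sets antibiotics, which deplete gut bacteria, and acetate, a product of those bacteria, against water in both genotypes. The sources used here give neither the Shank3 allele nor the age of the mice, the dose or the length of treatment. Whether libraries stem from different animals is not stated in the labels, and the p-values refer to the spread among these libraries.

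In an excitatory synapse these proteins form a stack beneath the receptors. Dlg4 encodes PSD-95, which binds NMDA receptors and the partners of AMPA receptors at the membrane. The SAPAP proteins, encoded by Dlgap1 to Dlgap4, bind PSD-95 from below and the PDZ domain of Shank proteins with their tail. Shank1, Shank2 and Shank3 are the deeper scaffold, and Homer proteins cross-link Shank to group I metabotropic glutamate receptors and to IP3 receptors. Homer1 also gives a short form, Homer1a, which neurons make within a short time of activity and which cannot cross-link. In bulk tissue, fewer cells of a type and less RNA per cell cannot be told apart, and gene values cannot separate the short from the long Homer1 transcripts.

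Shank3 itself ranged over 4.07 to 5.11 log2 CPM in KO, against 7.48 to 8.85 in WT. In 3 libraries labelled WT (WT_abx 4, WT_acetate 2 and WT_acetate 5) it lay at 7.48 to 8.08, with the neighbouring gene Acr at 3.62 to 4.56, between the KO range of Acr (5.04 to 5.78) and that of the other 16 WT libraries (-0.46 to 0.83). In 4 libraries (WT_abx 3, WT_acetate 2, WT_acetate 4 and WT_acetate 5) the Y-linked genes went against the labelled sex. The mean of 4 Y-linked genes was 4.69 to 5.21 log2 CPM in the other males and -0.18 to 0.93 in the other females. It was 4.90 in WT_abx 3, labelled female, and -0.06 and 0.17 in WT_acetate 2 and WT_acetate 4, labelled male. In WT_acetate 5, labelled female, it was 3.36, which lay between the ranges and matched neither sex. KO_acetate 1 stood apart in cell type markers: its summed level was 2316 CPM for 14 markers of striatal medium spiny neurons, against 558 to 688 CPM in the other 34 libraries. For 14 oligodendrocyte markers the sum was 10000.5 CPM against 1205 to 5163 CPM, and for 10 excitatory cortical neuron markers 4857 CPM against 7011 to 9528 CPM. WT_abx 4 stood apart in markers of meninges and choroid plexus, with a sum of 402 CPM over 9 markers, each above all other libraries, against 29.3 to 150 CPM in the other 34. For 10 markers of endothelial cells and pericytes its sum was 664 CPM against 352 to 593 CPM. KO_control 1 held the lowest value of all 35 libraries in 1268 of the 14870 genes and the highest in 1573. Within KO_control it was the lowest library in every scaffold gene except Homer3, where it was the highest. The cortical glutamate transporter Slc17a7 was present in every library, at 10.86 log2 CPM in KO_acetate 1 and 10.48 to 11.06 in the others. Reads recovered from the values came to 12.8 M to 28.0 M per library, with a median of 21.8 M.

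Per kilobase of annotated exon, Dlgap3 was the most abundant of the scaffold transcripts in mPFC and Homer3 the least. The mean over 35 libraries was 7.05 log2 CPM per kb for Dlgap3, 6.52 for Shank1, 5.83 for Dlg4, 5.38 for Dlgap4 and 5.09 for Dlgap1. Each of these stood above the next in all 35 libraries. Shank2 followed at 4.50, Homer1 at 4.01, Dlgap2 at 3.98, Homer2 at 3.07 and Homer3 at 1.21. Homer1 and Dlgap2 had no fixed order, with Homer1 above Dlgap2 in 13 of 35 libraries. Homer3 rested on 62 to 269 reads per library, with a median of 178, where Dlgap2 and Homer2 had medians of 2217 and 2342. Exon lengths are the union of all annotated exons, so a gene with long exons that mPFC does not use is placed too low.

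On the plus strand of GRCm38, in the GENCODE vM21 annotation, Shank1 lies on chromosome 7 from 44310253 to 44360572, and Shank2 on chromosome 7 from 144001928 to 144424494. Homer1 lies on chromosome 13 from 93299635 to 93405129, Homer2 on chromosome 7 from 81600481 to 81707527 on the minus strand, and Homer3 on chromosome 8 from 70282827 to 70294361. Dlgap1 lies on chromosome 17 from 69969073 to 70821413, Dlgap2 on chromosome 8 from 14095865 to 14847680, Dlgap3 on chromosome 4 from 127169204 to 127237022, Dlgap4 on chromosome 2 from 156613705 to 156764363, and Dlg4 on chromosome 11 from 70016942 to 70047522. Exons of Homer3 overlap those of Ddx49 and exons of Shank1 those of 1700008O03Rik. Both neighbours are in the matrix, and since the use of strand in counting is unknown, the Homer3 and Shank1 values are uncertain to that extent.

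**Figure D1:**
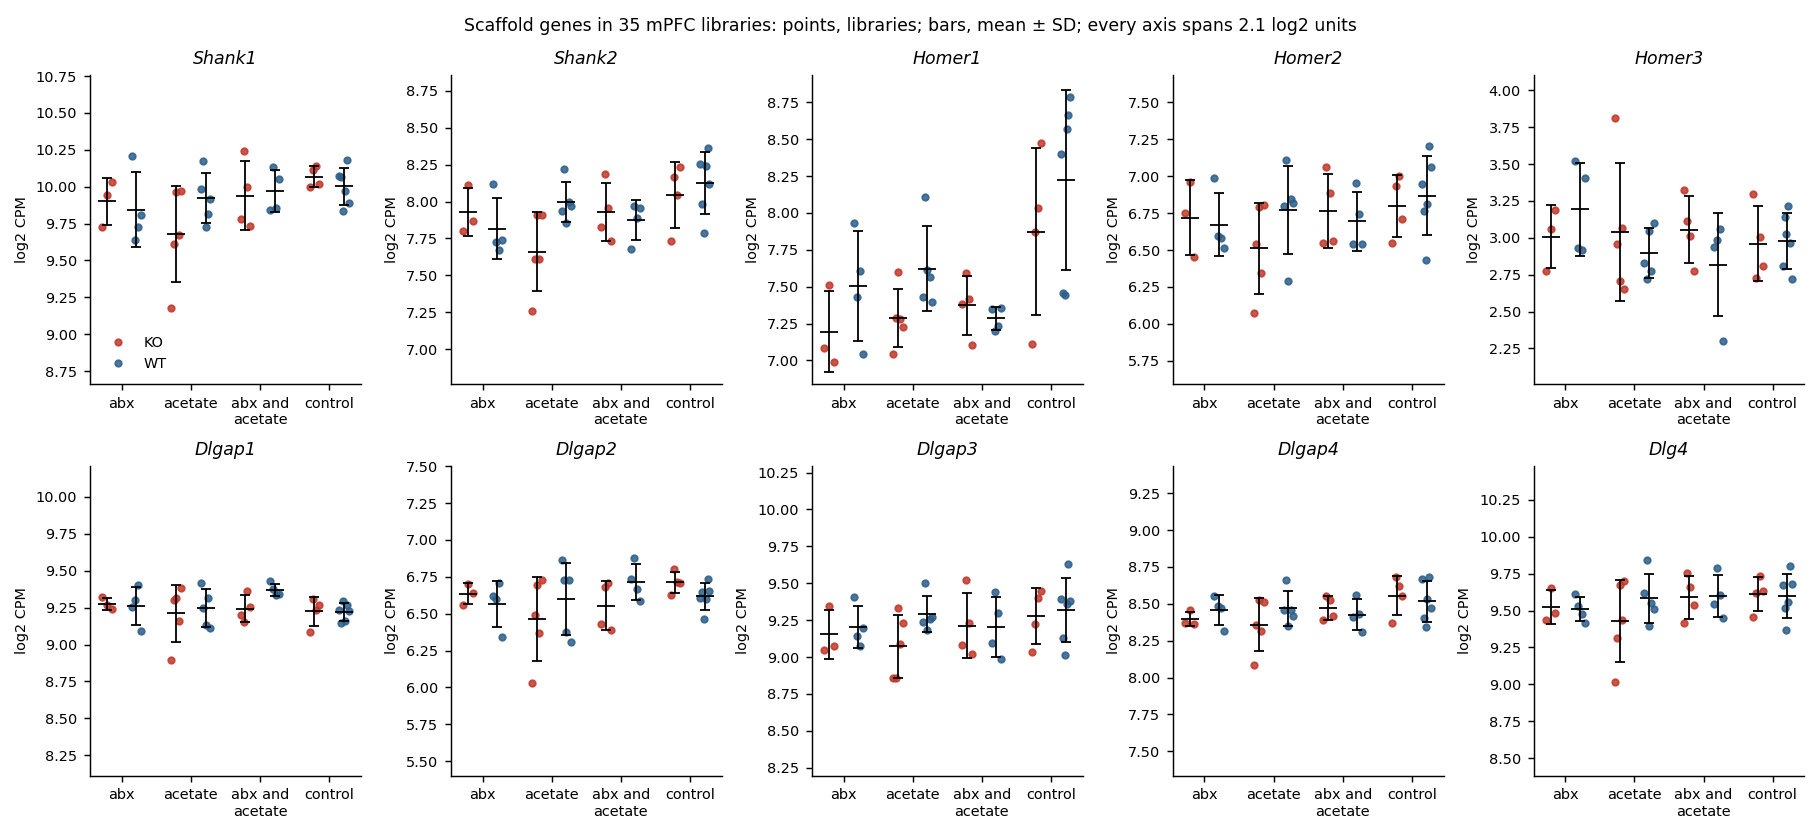
Level of each scaffold gene in log2 CPM (y axis, each spanning the same distance) in KO (red, left of each pair) and WT (blue) libraries under abx, acetate, abx_and_acetate and control (x axis), with points for libraries and bars for the mean and SD. In each panel the KO and WT points of a treatment overlap, and Homer1 has the widest spread.

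The first question was whether loss of Shank3 came with other levels of its paralogues and partners. By limma, 0 of 10 scaffold genes passed an adjusted p of 0.05 between KO and WT in any treatment or over treatments. In control, 0 of 10 also had an unadjusted p under 0.05, the median log2 fold was -0.01 (all genes: 0.00), and 5 genes were below 0. There 0.0202% of all genes passed the adjusted threshold and 4.0% the unadjusted one. Under abx, 0 of 10 had an unadjusted p under 0.05, with 0.0134% of all genes past the adjusted and 3.78% past the unadjusted threshold, and the median log2 fold was 0.02. Without WT_abx 4 that median was -0.03, with 8 of 10 below 0 in place of 4. Still 0 of 10 had an unadjusted p under 0.05 (3.34% of all genes). Under acetate, 2 of 10 (Shank1 and Shank2) had an unadjusted p under 0.05, against 5.97% of all genes, and 0.00672% of genes passed after adjustment. The median there was -0.20, with 9 of 10 genes below 0 (8 of 10 under quantile normalization, where Dlgap1 was above 0), against 50.9% of all genes. Under abx_and_acetate, 0 of 10 had an unadjusted p under 0.05 (all genes 3.7% unadjusted and 0.0134% adjusted), and the median was -0.01. Over treatments, 0 of 10 had an unadjusted p under 0.05 (all genes 5.25% unadjusted and 0.0202% adjusted), with 9 of 10 below 0 and a median of -0.05. Of all genes, 49.6% were below 0 there. Without KO_acetate 1, 9 of 10 were still below 0, with a median of -0.01. Without WT_abx 4 the median was -0.06, with 1 of 10 at an unadjusted p under 0.05 (5.56% of all genes). Most of the 10 genes varied together across libraries, so these counts are not of independent genes.

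**Figure D2:**
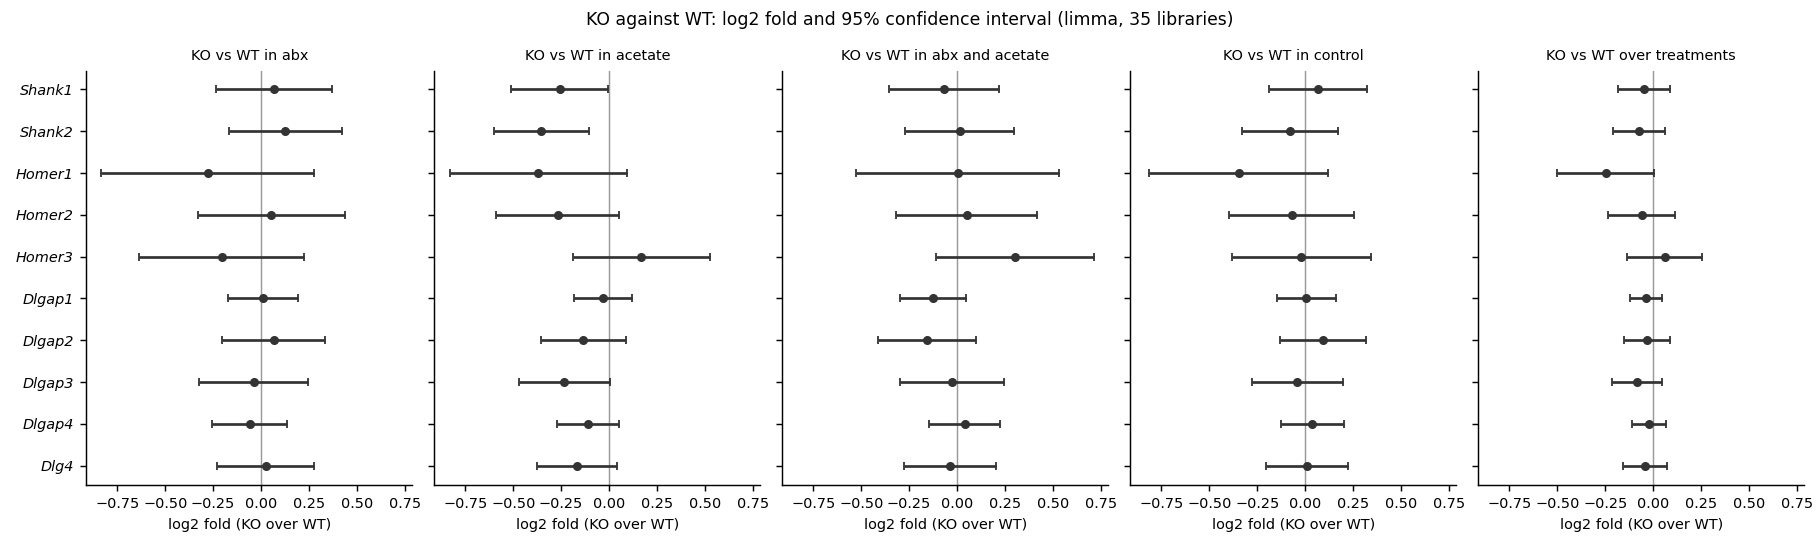
Log2 fold of KO over WT (x axis) for the 10 scaffold genes (y axis) under abx, acetate, abx_and_acetate and control and over treatments, with 95% confidence intervals from limma. Over treatments, all 10 intervals reach 0, and the widest, for Homer1, runs from -0.50 to 0.00.

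The paralogues Shank1 and Shank2 bind many of the same partners as Shank3. In control, Shank1 was at 9.999, 10.12, 10.14 and 10.02 log2 CPM in KO_control, against a lowest, median and highest value of 9.84, 10.02 and 10.18 in the 6 WT libraries. All KO values lay within the WT range. The log2 fold was 0.07 ± 0.13 (SE), and its 95% interval, -0.19 to 0.32, reaches 1.25-fold at its far end. Shank2 was at 7.73, 8.17, 8.05 and 8.23 in the KO_control libraries, against 7.79, 8.18 and 8.36 as the lowest, median and highest of WT_control. The groups overlapped, with a log2 fold of -0.08 ± 0.12 (interval -0.33 to 0.17). Over treatments, Shank1 was at -0.05 (interval -0.19 to 0.09) and Shank2 at -0.07 (interval -0.21 to 0.06), intervals that reach 1.14-fold and 1.16-fold at their far ends. Without KO_acetate 1, Shank1 was at -0.01 and Shank2 at -0.05.

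Summed per kilobase, Shank1 and Shank2 gave 113 ± 18.2 CPM per kb in the 16 KO libraries and 118 ± 13.8 in the 19 WT libraries (SD). With Shank3 added, the 3 transcripts summed to 116 ± 18.4 CPM per kb in KO and 155 ± 18.3 in WT. Shank3 made up 2.16% ± 0.43 of that sum in KO and 23.8% ± 3.41 in WT, and Shank1 made up 78.7% ± 1.23 in KO and 61.0% ± 3.30 in WT. The sum of Shank1 and Shank2 overlapped between genotypes, at 69.3 to 142 CPM per kb in KO and 95.5 to 141 in WT. Among WT libraries the Shank3 share was lowest, at 15.0%, in WT_acetate 2, which is 1 of the 3 libraries of intermediate Shank3.

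**Figure D3:**
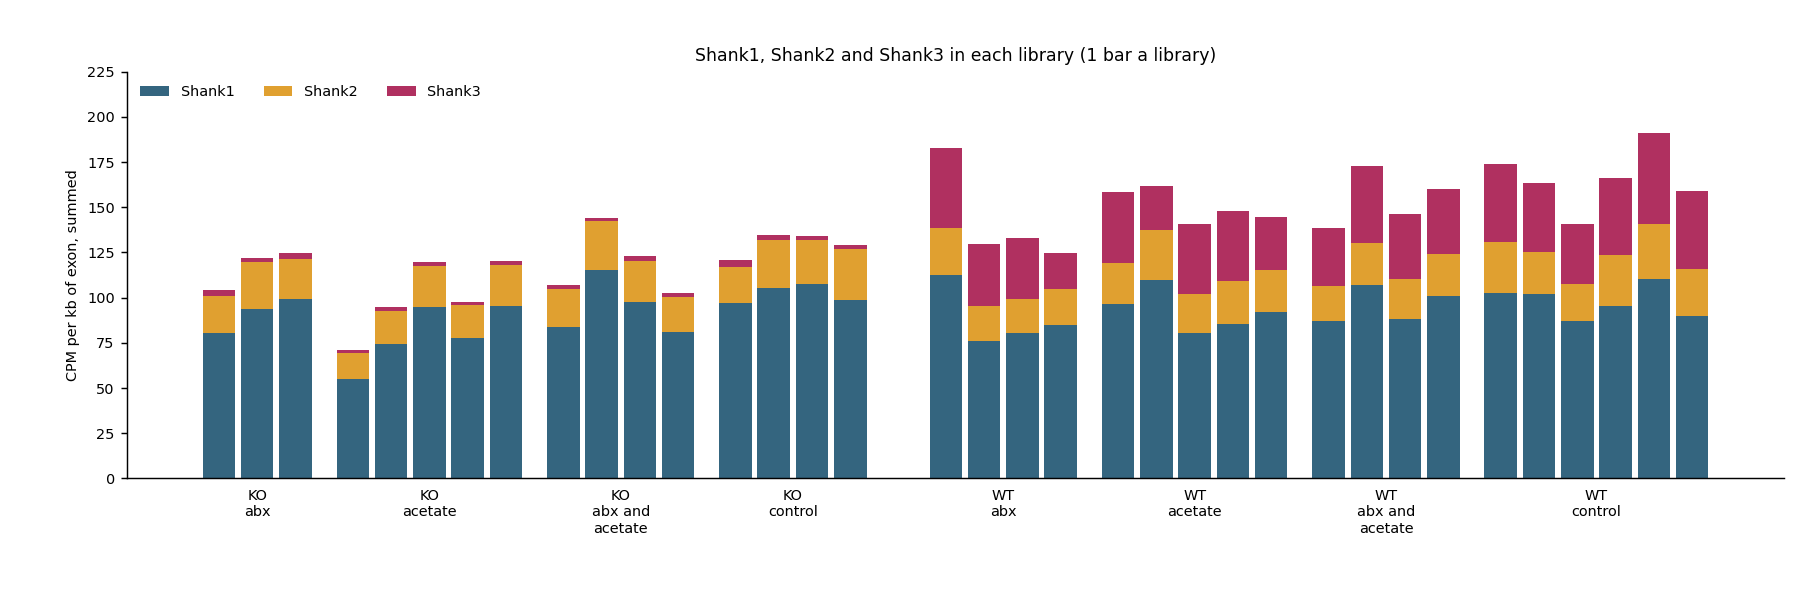
Summed level of Shank1, Shank2 and Shank3 in CPM per kb of exon (y axis) in each library (1 bar each), with KO groups on the left and WT groups on the right. The Shank3 segment is thin in each KO bar, and the summed Shank1 and Shank2 segments overlap between genotypes, with the lowest bar in KO_acetate 1.

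Under acetate both paralogues were lower in KO at an unadjusted p under 0.05, and neither passed the adjusted threshold. Shank2 was at 7.26, 7.61, 7.91, 7.61 and 7.91 log2 CPM in the KO_acetate libraries, against 7.94, 8.22, 7.86, 7.9998 and 7.97 in the WT_acetate libraries. Only the lowest WT value lay inside the KO range. The log2 fold was -0.35 ± 0.12, with an interval of -0.60 to -0.11 and an adjusted p = 0.827 by limma. Shank1 was at 9.18, 9.61, 9.96, 9.67 and 9.97 in KO_acetate, against 9.99, 10.17, 9.73, 9.81 and 9.91 in WT_acetate, and the groups overlapped. Its log2 fold was -0.26 ± 0.12 (interval -0.51 to -0.01, adjusted p = 0.827). KO_acetate 1, the library with the high striatal and oligodendrocyte markers, held the lowest value of both genes. Without it the log2 fold was -0.25 for Shank2 (interval -0.50 to -0.01) and -0.13 for Shank1 (interval -0.36 to 0.10), the median over the 10 genes was -0.10, and 1 gene in place of 2 had an unadjusted p under 0.05 (2.57% of all genes). Without the 3 libraries of intermediate Shank3, Shank2 was at -0.31, still at an unadjusted p under 0.05, and Shank1 at -0.20, no longer under it. Without the 4 libraries that go against their sex label, Shank2 was at -0.28 and Shank1 at -0.22, neither under it. That fit kept only WT_acetate 1 and WT_acetate 3 of WT_acetate. The smaller group cannot be told apart from the part of the libraries left out.

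Homer1 was the scaffold gene farthest from 0 over treatments. In control it was at 7.11, 7.87, 8.03 and 8.47 log2 CPM in KO, against 7.44, 8.49 and 8.79 as the lowest, median and highest of the 6 WT libraries. The 2 genotypes overlapped over most of their range. The log2 fold was -0.35 ± 0.23 in control, -0.28 ± 0.27 under abx, -0.37 ± 0.23 under acetate and 0.00 ± 0.26 under abx_and_acetate, and the last turned negative when libraries were centred on their median. Over treatments it was -0.25 ± 0.12 (adjusted p = 0.957 by limma), a 1.19-fold lower level in KO with an interval of -0.50 to 0.00. Without the 3 libraries of intermediate Shank3 it was -0.31, at an unadjusted p under 0.05 (adjusted p = 0.678). In libraries labelled male it was -0.23 and in those labelled female -0.22. These fits used the labelled sex, which 4 libraries go against, and some groups then held a single library. They do not show that the difference is alike in both sexes.

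Homer2 and Homer3, the other cross-linking Homer genes, had no unadjusted p under 0.05 between genotypes. Homer2 averaged 6.80 ± 0.21 in KO_control (SD, n = 4) and 6.87 ± 0.27 in WT_control (SD, n = 6), and over treatments its log2 fold was -0.06 (interval -0.23 to 0.12). Homer3 averaged 2.96 ± 0.25 in KO_control and 2.98 ± 0.19 in WT_control. Its log2 fold over treatments was 0.06, with an interval of -0.14 to 0.26. At its median read number, counting error alone gives Homer3 an SD of 0.11 on the log2 scale, against 0.03 for Homer2. Its log2 fold of 0.17 under acetate was -0.03 without KO_acetate 1, which held the highest Homer3 of all 35 libraries at 3.81. Without that library the log2 folds over treatments were -0.03 for Homer2 and 0.01 for Homer3.

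Of the SAPAP genes, Dlgap1 and Dlgap4 gave the tightest limits. Dlgap1 was at 9.09, 9.31, 9.23 and 9.27 log2 CPM in KO_control, against 9.14, 9.23 and 9.29 as the lowest, median and highest of WT_control, and the groups overlapped. Over treatments the log2 fold was -0.04 for Dlgap1 (interval -0.12 to 0.05) and -0.02 for Dlgap4 (interval -0.11 to 0.07), which reach 1.09-fold and 1.08-fold at their far ends. Dlgap2 was at -0.03 (interval -0.15 to 0.09), and Dlgap3, whose loss in mice is known for repetitive grooming, at -0.08 (interval -0.21 to 0.04). Under acetate Dlgap3 had a log2 fold of -0.23 ± 0.12 (adjusted p = 0.830), and without KO_acetate 1 it was -0.18. Without that library the log2 folds over treatments were -0.01 for Dlgap1, -0.001 for Dlgap2, -0.07 for Dlgap3 and -0.003 for Dlgap4.

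Dlg4, the gene of PSD-95, was at 9.45, 9.62, 9.73 and 9.63 in KO_control, against 9.37, 9.62 and 9.80 as the lowest, median and highest of WT_control. The KO values lay inside the WT range. The log2 fold was 0.01 ± 0.10 in control and -0.04 over treatments (interval -0.16 to 0.07). Under acetate it was -0.17 ± 0.10, and -0.06 without KO_acetate 1. Over treatments it was -0.01 without that library.

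The second question was how each treatment compared with water within a genotype. No scaffold gene passed the adjusted threshold in these comparisons by limma, and Homer1 was the 1 gene with an unadjusted p under 0.05 in each of the 6 comparisons of a treatment with control. In WT, 2 of 10 genes (Homer1 and Shank2) had such a p under abx, where 9.05% of all genes did and 0.0% passed after adjustment. Without WT_abx 4, the library with the high meningeal and choroid plexus markers, it was 1 of 10 (Homer1), against 6.5% of all genes. Under acetate it was 1 of 10 in WT (Homer1), against 9.41% of all genes, and 0.00672% after adjustment. Under abx_and_acetate it was 1 of 10 in WT (Homer1), against 14.4% of all genes, with 0.726% past the adjusted threshold. In KO, 1 of 10 (Homer1) had an unadjusted p under 0.05 under abx (all genes 3.3% unadjusted and 0.0134% adjusted), 5 of 10 under acetate (13.0% and 0.0%) and 1 of 10 (Homer1) under abx_and_acetate (7.42% and 0.0%). The log2 folds of the 10 genes had a median of -0.10 under abx, -0.05 under acetate and -0.09 under abx_and_acetate in WT, and of -0.09, -0.22 and -0.08 in KO for the same treatments. The all-gene medians lay within 0.01 of 0. Comparisons within a genotype share their control libraries, so their folds are not independent of each other.

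Homer1 was the most variable scaffold gene, spanning 1.80 log2 units (3.48-fold) over 35 libraries, from KO_abx 3 to WT_control 6. Its SD within groups after the sex term was 0.38, larger than in 98.7% of 930 genes of similar level. In KO it was at 7.09, 7.51 and 6.99 log2 CPM under abx, at 7.04, 7.29, 7.60, 7.28 and 7.23 under acetate and at 7.38, 7.59, 7.42 and 7.10 under abx_and_acetate, against 7.11, 7.87, 8.03 and 8.47 in KO_control. Each treated KO group overlapped KO_control through the low library KO_control 1. In WT it was at 7.93, 7.43, 7.61 and 7.04 under abx, at 7.43, 8.11, 7.62, 7.57 and 7.39 under acetate and at 7.35, 7.20, 7.23 and 7.36 under abx_and_acetate, against 7.44, 8.49 and 8.79 as the lowest, median and highest of WT_control. The abx_and_acetate libraries all lay below the 6 control libraries, while abx and acetate overlapped them. Of the other scaffold genes Dlgap1 in this same comparison, with all 4 treated libraries higher (9.33 to 9.43 against 9.14 to 9.29, log2 fold 0.15, interval -0.01 to 0.30), and Shank1 under acetate in KO also had groups that did not overlap. Of all 14870 genes, 4.73% had groups that did not overlap between abx_and_acetate and control in WT, where 2 of 10 scaffold genes did, and 3.31% between acetate and control in KO, where 1 of 10 did.

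In WT the Homer1 log2 fold against control was -0.72 ± 0.23 under abx (adjusted p = 0.312), -0.55 ± 0.22 under acetate (adjusted p = 0.422) and -0.89 ± 0.23 under abx_and_acetate (adjusted p = 0.0577, all by limma). The last is a 1.86-fold lower level, and its interval ran from -1.37 to -0.42. It passed the adjusted threshold when 1 of the 2 low control libraries was left out, at -1.05 (adjusted p = 0.0318) without WT_control 2 and -1.05 (adjusted p = 0.0182) without WT_control 3. It also passed at -0.86 (adjusted p = 0.048) without the 3 libraries of intermediate Shank3, and it was -0.88 (adjusted p = 0.0771) without the 4 libraries that go against their sex label. Without WT_control 6, the highest control library, it was -0.80. Over all 20 alternatives its adjusted p by limma ran from 0.0182 to 0.140. In KO the log2 fold was -0.65 ± 0.27 under abx (adjusted p = 0.999), -0.57 ± 0.24 under acetate (adjusted p = 0.323) and -0.54 ± 0.25 under abx_and_acetate (adjusted p = 0.665). These KO folds rested in part on single libraries, at -0.47 under abx without KO_abx 3, and at -0.39 under acetate and -0.35 under abx_and_acetate without KO_control 4, each then at an unadjusted p above 0.05. Without the low library KO_control 1 they were -0.89 under abx, -0.81 under acetate and -0.76 under abx_and_acetate. In WT under abx the fold was -0.53 without WT_abx 4, still at an unadjusted p under 0.05. In WT under acetate it was -0.43 without WT_acetate 5, also above 0.05, and -0.59 without the 4 libraries that go against their sex label, again above it. The last fit kept only WT_acetate 1 and WT_acetate 3 of WT_acetate.

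Within each control group, Homer1 was higher in every library labelled female than in any labelled male, a pattern seen in the values and not tested. The 2 KO_control females were at 8.03 and 8.47 and the 2 KO_control males at 7.11 and 7.87, and the 3 WT_control females were at 8.57 to 8.79 and the 3 WT_control males at 7.44, 7.45 and 8.40. Among libraries labelled female, the 10 treated ones (6.99 to 7.61) all lay below the 5 controls (8.03 to 8.79). Among those labelled male, the 15 treated ones (7.04 to 8.11) overlapped the 5 controls (7.11 to 8.40), of which 1 stood above all treated males. Without the 4 libraries that go against their label, the treated females reached 7.59 and the treated males 7.93. Whether the treatment difference differs between sexes was not tested.

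**Figure D4:**
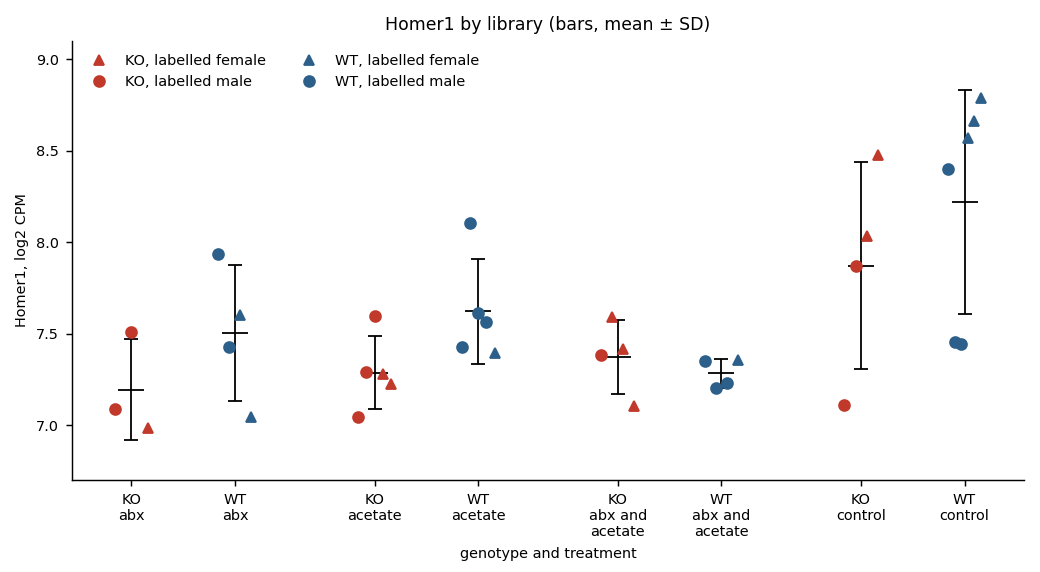
Homer1 in log2 CPM (y axis) by genotype and treatment (x axis), with triangles for libraries labelled female, circles for libraries labelled male, and bars for the mean and SD of a group. The highest values are those of control libraries, where 5 of 10 stand above all 25 treated libraries.

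Homer1 is known as an activity-regulated gene, and its upstream sequence is shown because activity-regulated promoters often carry the cyclic AMP response element (CRE), whose core motif is TGACG. RefSeq's table for GRCm38.p6 holds a promoter window for 7 of the 10 scaffold genes. In the Homer1 window below (chr13:93303507-93303756, plus strand, 250 bases that end at the base before the start site) capitals mark the core motifs, which begin 56, 40 and 14 bases before the start.
Homer1 promoter: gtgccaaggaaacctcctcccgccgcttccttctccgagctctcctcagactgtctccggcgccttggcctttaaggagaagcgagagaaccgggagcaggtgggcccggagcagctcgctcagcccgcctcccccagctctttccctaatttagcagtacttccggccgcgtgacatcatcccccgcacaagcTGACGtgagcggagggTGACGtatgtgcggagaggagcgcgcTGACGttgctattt
All 3 core motifs run in the same direction. Over windows of 300 bases (250 before the start to 50 after), both strands searched, 20.8% of 32851 mouse promoters held at least 1 such core motif and 1.03% held 3 or more. The full palindrome TGACGTCA, which holds the core motif on both strands, was in 1.79% of all windows and not in this one. A second Homer1 window, from 93307784 to 93308083, held no core motif. Among the 12 windows of the 7 genes, 3 held a core motif, and those of Dlgap4 and Dlg4 held 1 each. A match of letters is a description and shows no binding.

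For comparison, 20 immediate early genes (without Homer1) had a median log2 fold of -1.03 between KO and WT in control, with 17 lower and 1 higher at an unadjusted p under 0.05 and 0 past the adjusted threshold (all genes 4.0% unadjusted and 0.0202% adjusted). In KO their median against control was 0.16 under abx, 0.35 under acetate and 0.26 under abx_and_acetate, while Homer1 had negative folds in all of these comparisons. In WT their median was -0.32, -0.73 and -0.71 for the same treatments, and Homer1 was below 0 as well. Averaged over the 20 genes, the deviation from each gene's mean was -1.10 and -0.86 log2 units in KO_control 1 and KO_control 2. It was -0.03 in KO_control 3, 0.34 in KO_control 4 and 0.22 to 1.06 in WT_control. The genotype median in control and the KO medians share these KO_control libraries, so they are not separate results. The part of KO_control 1 and KO_control 2 in them was not tested. Over 35 libraries the genes most like Homer1 were Synj2 (Pearson r = 0.945), a phosphoinositide phosphatase gene, Sgsm1 (r = 0.928) and Pdp1 (r = 0.912), a gene of a pyruvate dehydrogenase phosphatase. Without the 2 libraries farthest from the Homer1 median, Synj2 had r = 0.932 and Sgsm1 r = 0.926, while Pdp1 had r = 0.869 and fell to rank 7. These are descriptions over libraries that share groups and depth.

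Acetate in KO was the comparison in which the most scaffold genes had an unadjusted p under 0.05. Shank1 was at 9.18, 9.61, 9.96, 9.67 and 9.97 log2 CPM in KO_acetate, against 9.999, 10.12, 10.14 and 10.02 in KO_control, and the groups did not overlap. The log2 fold was -0.38 ± 0.13 (adjusted p = 0.255 by limma). Shank2 was at 7.26 to 7.91 in KO_acetate and 7.73 to 8.23 in KO_control, overlapping, with a log2 fold of -0.38 ± 0.13 (adjusted p = 0.255). Dlgap2 was at -0.25 ± 0.11 and Dlgap4 at -0.20 ± 0.08, with adjusted p = 0.353 and adjusted p = 0.331. The other members were Dlg4 at -0.18, Dlgap3 at -0.20, Homer2 at -0.28, Dlgap1 at -0.02 and Homer3 at 0.07.

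KO_acetate 1 held the lowest value of all 35 libraries in 8 of the 10 scaffold genes, and in 1778 of all 14870 genes. The exceptions were Homer1 and Homer3. Its levels were 9.18 for Shank1, 7.26 for Shank2, 6.07 for Homer2, 8.89 for Dlgap1, 6.03 for Dlgap2, 8.86 for Dlgap3, 8.09 for Dlgap4 and 9.02 for Dlg4. Without it, acetate in KO gave 3 genes at an unadjusted p under 0.05 (9.83% of all genes), namely Homer1 at -0.52, Shank1 at -0.26 and Shank2 at -0.28. Dlgap2 was then at -0.14 and Dlgap4 at -0.13, and the median of the 10 genes was -0.15 with 9 still below 0. In this library 13 of 14 striatal and 14 of 14 oligodendrocyte markers stood above all other libraries, and 6 of 10 excitatory neuron markers below. Drd2, a receptor of striatal neurons, was at 4.93 log2 CPM against -0.94 to 0.70. The part of these markers in the acetate values was not tested beyond leaving the library out. Among the other 34 libraries, KO_acetate 2 held the highest oligodendrocyte sum, 5163 CPM, and the lowest excitatory sum, 7011 CPM. Its striatal sum was 605 CPM, inside the range of the others, and its excitatory markers averaged 0.08 log2 units above their means. Shank1 was at 9.61 and Shank2 at 7.61 in KO_acetate 2, and leaving out both libraries together was not tested.

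**Figure D5:**
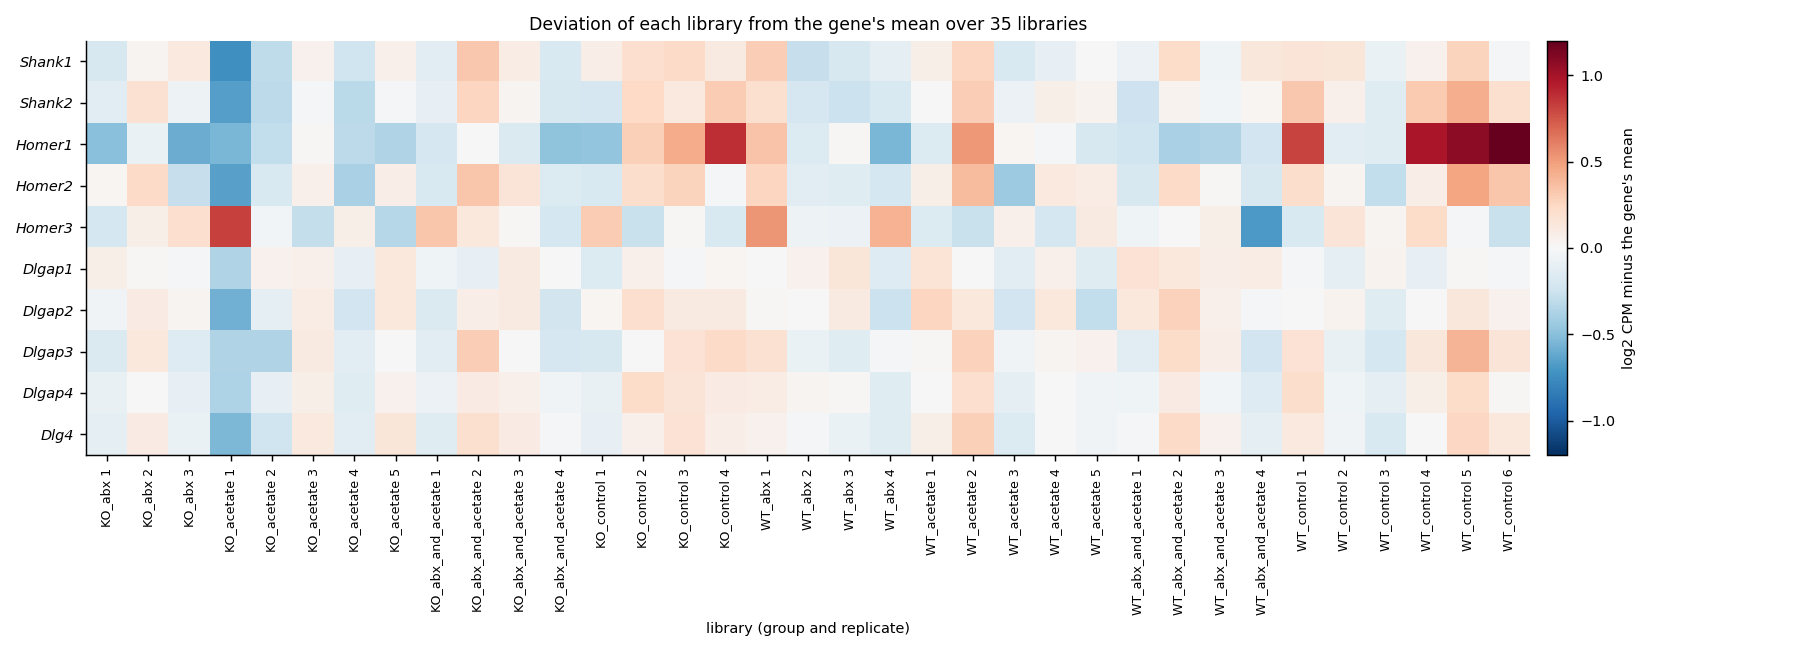
Deviation of each library (x axis) from the mean of each scaffold gene (y axis), in log2 CPM, with KO libraries on the left and WT libraries on the right. KO_acetate 1 is the lowest library for 8 of the 10 genes and the highest for Homer3, and Homer1 is high in 5 of the 10 control libraries.

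In WT under abx, Shank2 was at 8.12, 7.73, 7.67 and 7.74 log2 CPM, against 7.79, 8.18 and 8.36 as the lowest, median and highest of WT_control. Only WT_abx 1 lay inside the control range. The log2 fold was -0.31 ± 0.12 (adjusted p = 0.41 by limma), -0.43 without WT_abx 1 and -0.24 without WT_abx 3. It was -0.27 both without WT_abx 4 and without the 3 libraries of intermediate Shank3, and -0.24 without the 4 that go against their sex label. The unadjusted p was above 0.05 in each of these except the fit without WT_abx 1, where it stayed under 0.05 as with all libraries. Adding acetate to abx put 1 of 10 scaffold genes, Homer3, at an unadjusted p under 0.05 in WT (all genes 6.12% unadjusted and 0.0% adjusted) and 0 of 10 in KO (2.0% and 0.0%). Homer3 was at 2.94, 2.98, 3.06 and 2.30 in WT_abx_and_acetate and at 3.52, 2.93, 2.92 and 3.41 in WT_abx, overlapping. Its log2 fold was -0.41 ± 0.20 (adjusted p = 0.814), and -0.23 without WT_abx_and_acetate 4, the shallowest library, where the unadjusted p was above 0.05. It was -0.32 without WT_abx 4, also above 0.05.

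The third question was whether a treatment acted differently in the 2 genotypes, tested as an interaction in limma. For abx, 0 of 10 scaffold genes passed either threshold (all genes 0.0% adjusted and 2.47% unadjusted), and the median difference of log2 folds, KO minus WT, was 0.00. Without WT_abx 4 that median was -0.04, with 8 of 10 below 0 in place of 4. Still 0 of 10 had an unadjusted p under 0.05 (2.25% of all genes). For acetate, 0 of 10 passed either threshold (0.0% and 3.65%). Here 9 of 10 differences were below 0 (8 under quantile normalization) with a median of -0.18, the lowest being Shank1 at -0.32 ± 0.18 (adjusted p = 0.997). Without KO_acetate 1 the median was -0.08, 8 were below 0, and Shank1 was at -0.20. For abx_and_acetate, 0 of 10 passed either threshold (0.0% and 4.53%), with a median of 0.01. Homer1 was at 0.07 for abx, -0.02 for acetate and 0.35 ± 0.35 for abx_and_acetate, whose interval of -0.36 to 1.06 holds both no difference and a large one. A p above the threshold does not show that the genotypes responded alike.

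Around these scaffolds, 52 further genes were listed: 3 other members of the PSD-95 family (Dlg1 to Dlg3), 32 other postsynaptic scaffold genes and 17 receptors and channels tethered by them. None passed the adjusted threshold in any of the 16 comparisons. Between KO and WT, 0 of 52 had an unadjusted p under 0.05 in control (median log2 fold 0.01, all genes 4.0%) and 3 under abx (median 0.09, all genes 3.78%). It was 7 under acetate (median -0.06, all genes 5.97%), 2 under abx_and_acetate (median -0.05, all genes 3.7%) and 0 over treatments (median 0.00, all genes 5.25%). Without KO_acetate 1 the count under acetate was 1 (median -0.02, all genes 2.57%), and without WT_abx 4 the count under abx was 0 (median 0.02, all genes 3.34%). The scaffold Begain, which binds PSD-95, was at -0.30 ± 0.09 under acetate (adjusted p = 0.827) and -0.09 ± 0.05 over treatments. Iqsec2, an exchange factor for Arf proteins at the postsynaptic density, was at -0.28 ± 0.10 under acetate, and Itpr1, the IP3 receptor that Homer binds, at -0.09 ± 0.05 over treatments. Grin2a, an NMDA receptor subunit, was at -0.26 ± 0.12 under abx_and_acetate and 0.15 ± 0.11 in control. The others that came closest were Sorbs2 (0.37 ± 0.17) and Frmpd4 (0.24 ± 0.11) under abx, Tanc2 (-0.16 ± 0.07) under abx_and_acetate and the neuroligin gene Nlgn3 (-0.11 ± 0.08) in control. In WT, abx against control put 46 of 52 below 0 (median -0.12) beside 8 of the 10 scaffold genes, and 11 of 52 had an unadjusted p under 0.05, against 9.05% of all genes. Without WT_abx 4 it was 35 of 52 below 0 (median -0.07), with 1 at an unadjusted p under 0.05, against 6.5% of all genes. Abx_and_acetate against abx in WT, which shares the WT_abx libraries, put 8 of 52 below 0 (median 0.08), with 8 at an unadjusted p under 0.05, against 6.12% of all genes. Without WT_abx 4 it was 17 below 0 (median 0.04) and 3 at such a p, against 3.07%. The part of the meningeal and vascular markers in these values was not tested beyond leaving the library out. In KO, acetate against control put 40 of 52 below 0 (median -0.09), with 11 at an unadjusted p under 0.05, against 13.0% of all genes. Without KO_acetate 1 it was 32 below 0 (median -0.05) and 5 at such a p, against 9.83%.

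Across the 35 libraries 7 of the scaffold genes, all but Homer1, Homer3 and Dlgap1, varied together. Their 21 pairwise Pearson correlations ran from 0.54 to 0.89 with a median of 0.81, and from 0.44 to 0.87 without KO_acetate 1. The closest pairs were Homer2 with Dlg4 (r = 0.888) and Dlgap4 with Dlg4 (r = 0.887). Homer3 and Dlgap1 were the pair farthest apart, at r = -0.677, and r = -0.547 without KO_acetate 1. The 7 genes were chosen after these values were seen, and the points share groups, depth and dissection. Over all genes, the rows with a pattern close to that of Dlg4 included Camk2a, a kinase subunit of the postsynaptic density (r = 0.902), and Homer2.

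For other members the most similar row was Mast2 for Shank1 (r = 0.899), Ppp1r37 for Shank2 (r = 0.885) and Map4k4 for Homer3 (r = 0.789). It was Vps33a for Dlgap1 (r = 0.880), Iqsec2 for Dlgap2 (r = 0.849), Rnf10 for Dlgap3 (r = 0.915) and Ppm1h for Dlgap4 (r = 0.917). Without the 2 libraries farthest from the gene's median, Map4k4 dropped to rank 110 for Homer3 with r = 0.636, so that this likeness rested on KO_acetate 1 and WT_abx_and_acetate 4. Ppp1r37 fell to rank 7 for Shank2 (r = 0.838). Mast2 for Shank1, Iqsec2 for Dlgap2, Rnf10 for Dlgap3 and Ppm1h for Dlgap4 each fell to rank 2, and Vps33a was still first for Dlgap1.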

How the data were processed

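Per the labels' protocols, mPFC punch RNA went into paired-end libraries with a kit that keeps strand. The authors deposited log2 CPM values of the voom form, log2 of reads plus 0.5 over an effective library size, as 14870 genes by 35 libraries; column names are the sample titles (0 columns unused). All values came out as whole reads within 0.01 read, which gave the depth. Per the submitters' processing notes limma was used, version unstated. The sources used here give no aligner, counting tool, strand setting or build. Group and sex came from the labels. Replicate numbers only name libraries and pair none.

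One fit of the deposited log2 values for all genes used limma 3.58.1 (R 4.3.3), with 8 group means, the labelled sex, a trended prior and no further filter. P-values are 2-sided, adjusted by Benjamini-Hochberg over all genes of a comparison, threshold 0.05, for 16 comparisons. Errors of folds are SE, of groups SD. Per-kilobase levels used GENCODE vM21 exons, found for 97.1% of genes. The fit was also run on simulated data, with genes drawn independently and no library set apart. That run does not cover correlated genes or outlying libraries. Alternatives were no sex term, only the groups compared, voom weights from recovered reads, a filter at a mean of 0, median centring, quantile normalization, an untrended prior, RIN (RNA integrity, 8.8 to 9.3) as covariate, and leaving out libraries. The scaffold genes, the lists and the libraries in doubt were chosen with earlier results of these data known. Genes beyond the 10 were named by rule: for genotype comparisons, the 2 listed partners with the smallest p, and for likeness the 3 rows with the highest Pearson r, of which some are printed and some are not reported here; marker genes appear as sums, and Slc17a7 and Drd2 by name.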

Additional observations from a re-analysis of the deposited data

Results flagged for a closer look

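In 70 pairs of a scaffold gene and a group of at least 4 libraries, 4 held a library whose gap to its nearest neighbour filled most of the group's range; chance gives about 1 in 20. WT_abx 1 stood apart in Shank2, at 8.12 against a next value of 7.74 log2 CPM, and in Homer2, at 6.99 against 6.60. WT_abx_and_acetate 4, the shallowest library, stood low in Homer3, at 2.30 against 2.94. WT_acetate 2, labelled WT with intermediate Shank3, stood high in Dlgap3, at 9.50 against 9.27.

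For Dlgap2 the KO minus WT difference of group means had opposite signs in control and under abx_and_acetate, at 0.09 and -0.16, a gap of 0.26. The interaction in limma gave -0.25 ± 0.17 (SE, adjusted p = 0.999) for the same difference, with an interval of -0.59 to 0.09.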

How the results depend on the processing

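The number of scaffold genes past the adjusted threshold was 0 in 15 of 16 comparisons under every alternative run. In abx_and_acetate against control in WT it was 1 (Homer1) with no sex term (log2 fold -0.94, adjusted p = 0.0415), under quantile normalization (-0.89, adjusted p = 0.0384) and without the 3 libraries of intermediate Shank3 (-0.86, adjusted p = 0.048), and 0 to 1 when single libraries were left out. The cause was not tested. Over all alternatives this fold ran from -1.05 to -0.78. The 14 folds at an unadjusted p under 0.05 kept their sign in all 140 values from other settings and all 129 from leaving out 1 library. Of these values, 117 and 97 stayed at an unadjusted p under 0.05. The 14 folds were picked by that p in the same data, so a kept sign says little. The other 146 folds, most of them near 0, changed sign in 73 of 1480 and in 184 of 1821 values. Homer1 and Shank2 in KO against WT under abx_and_acetate turned negative under median centring, and Dlgap1 under acetate turned positive under quantile normalization. No paired analysis was possible because the replicate numbers used here were given in accession order, not by the labels, and pair no libraries. The counts among partner genes without WT_abx 4 or KO_acetate 1 were added after the data were seen. Homer3, with 62 to 269 reads a library, is the gene most limited by depth. Group sizes of 3 to 6 libraries leave intervals that reach 1.76-fold for Homer1 in KO against WT in control.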
